A study of Mus musculus with 18 samples.

Results

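The 8 genes described here encode the GABA and metabotropic glutamate receptor subunits Gabbr1, Gabbr2, Gabra2, Gabra4, Gabrb1, Gabrg1, Grm3 and Grm5. They were chosen by name, are 8 of the 23924 genes read from the deposited table, and all 8 were among the 21745 genes tested. Their levels were followed in astrocytes from M1, the primary motor cortex, of C57BL/6 mice. The study asked how the astrocyte transcriptome differs with learning of a lever task, in which water-restricted mice pushed a lever after a cue for a drop of water. Naive mice were untrained and 12 to 21 weeks old, novice mice had trained for 3 days and were 11 to 13 weeks old, and expert mice were fully trained and 13 to 15 weeks old. Each group had 6 libraries, 2 labelled female and 4 labelled male, and no agent or altered allele is named for any group. Whether every library stands for its own animal is not stated in the labels, and p-values here reflect the spread among libraries. The sources used here do not say how astrocytes were separated from other cells.

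GABA-A receptors are chloride channels built from alpha, beta and gamma subunits, and GABA-B receptors are G protein-coupled pairs in which the Gabbr1 product binds GABA and the Gabbr2 product couples to Gi proteins. Metabotropic glutamate receptors are G protein-coupled as well: the Grm3 product, mGluR3, acts through Gi, and the Grm5 product, mGluR5, acts through Gq and calcium release. Astrocytes carry receptors of both transmitters and answer neuronal GABA and glutamate mainly with calcium signals, and mGluR5 is known to be abundant in young and scarce in adult cortical astrocytes, where mGluR3 prevails.

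The 18 libraries did not form a uniform set. Values are in FPKM, that is, fragments per kilobase, scaled to what each library mapped in all. The mean over 1586 genes from families with little or no expression in brain cells, called silent genes below (olfactory, vomeronasal and taste receptors, keratin-associated proteins and defensins) ranged from 0.301 FPKM in expert 3 to 6.70 FPKM in naive 5. It lay at 0.301 to 3.31 FPKM in 10 libraries, called lower background here (4 naive, 2 novice and 4 expert), and at 4.65 to 6.70 FPKM in 8, called higher background (2 naive, 4 novice and 2 expert). One fragment on 1 kb of transcript was worth 0.604 to 1.93 FPKM in 17 libraries, and no such step could be read in expert 3, which also had the most genes at 0 (5430). In 2 novice libraries the label of sex was not matched by Xist, transcribed from the inactive X, and the Y-linked Ddx3y: Xist stood at 1.60 FPKM in novice 1, female by label, and 17.97 FPKM in novice 3, male by label, and Ddx3y at 12.6 and 3.29 FPKM. Astrocyte markers were abundant, with Slc1a2, the main astrocyte glutamate transporter, at 1397 ± 712 FPKM (SD, n = 6) in the naive libraries, 883 ± 442 in novice and 1565 ± 752 in expert libraries. Summed over 20 astrocyte markers, levels ran from 2109 to 8016 FPKM in the naive libraries, 2105 to 5303 in novice and 2791 to 10408 in expert libraries, with 0 of the 20 at 0 in any library. The sum of 14 neuron markers ran from 171 to 986 FPKM in the naive libraries, 191 to 1352 in novice and 210 to 1288 in expert libraries, with 0 of the 14 at 0, so transcripts of neurons were present in each group.

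On the chromosomes the GABA-A members are neighbours. In the RefSeq annotation of GRCm38.p6, the protein-coding genes Gabrg1, Gabra2, Cox7b2, Gabra4 and Gabrb1 lie in this order on chromosome 5 within 1399 kb (70751047 to 72149572). The bodies of Gabra4 and Gabrb1, on opposite strands, overlap by 388 bases at their starts. The kit keeps strand, but the sources used here do not say whether the authors' counting used it, so reads from the overlap may not be told apart. Grm3 lies on chromosome 5 as well (9485236 to 9725352), Gabbr1 on chromosome 17 (37045966 to 37074305), Gabbr2 on chromosome 4 (46662318 to 46991714) and Grm5 on chromosome 7 (87583981 to 88135063). These coordinates are of GRCm38.p6, whereas the authors aligned reads to mm9, per the submitters' processing notes.

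The RefSeq promoter table held 8 windows for 7 of the 8 genes, each with 250 bases before and 50 after an annotated start. The 250 bases before the start are shown for 4 genes: Grm3 and Gabbr1, whose levels moved together across libraries, and Gabrb1 and Gabrg1, the beta and gamma subunit genes of 1 chromosomal cluster whose ratio is compared further on. Capitals mark a match to the GC box (GGGCGG), the CCAAT box (CCAAT) or the core bound by SOX factors (ACAAAG) on either strand. They lie at chr5:9725353-9725602 on the minus strand for Grm3, chr17:37045716-37045965 on the plus strand for Gabbr1, chr5:71657671-71657920 on the plus strand for Gabrb1 and chr5:70842618-70842867 on the minus strand for Gabrg1, in GRCm38.p6, and read 5′ to 3′.
Grm3: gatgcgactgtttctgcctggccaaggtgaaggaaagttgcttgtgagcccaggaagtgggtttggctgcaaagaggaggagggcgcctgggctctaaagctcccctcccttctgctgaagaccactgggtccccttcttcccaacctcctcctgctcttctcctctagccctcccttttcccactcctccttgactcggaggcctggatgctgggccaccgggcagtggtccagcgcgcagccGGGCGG
Gabbr1: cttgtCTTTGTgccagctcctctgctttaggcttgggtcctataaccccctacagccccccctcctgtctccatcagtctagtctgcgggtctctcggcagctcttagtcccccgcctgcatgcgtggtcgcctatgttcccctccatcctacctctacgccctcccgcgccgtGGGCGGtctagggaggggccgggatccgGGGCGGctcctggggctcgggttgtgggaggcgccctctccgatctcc
Gabrb1: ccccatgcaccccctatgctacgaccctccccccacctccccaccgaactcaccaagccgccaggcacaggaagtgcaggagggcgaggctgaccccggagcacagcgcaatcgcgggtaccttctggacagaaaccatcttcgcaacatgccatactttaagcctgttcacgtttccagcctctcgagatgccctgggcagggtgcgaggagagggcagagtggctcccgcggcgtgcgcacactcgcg
Gabrg1: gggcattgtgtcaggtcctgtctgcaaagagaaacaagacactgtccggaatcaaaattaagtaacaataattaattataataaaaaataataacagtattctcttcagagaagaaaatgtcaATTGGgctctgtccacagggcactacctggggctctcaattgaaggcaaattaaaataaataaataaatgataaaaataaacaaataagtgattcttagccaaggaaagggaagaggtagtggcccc

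These promoters differ widely in base content. Over its full 300-base window the Gabrg1 promoter had 38.3% G and C and 3 CpG dinucleotides, and that of Gabbr2 had 80.3% G and C and 46 CpG, against a median of 53% and 7 CpG over 32544 promoter windows. The windows of Grm3 (63.7% G and C, 11 CpG), Gabbr1 (67.3%, 18 CpG), Gabra2 (70.0%, 25 CpG) and Gabra4 (58.7%, 12 CpG) lay between these. Gabrb1 has 2 annotated starts, at 66.0% with 25 CpG and 50.3% with 9 CpG. A GC box stood in 5 of the 8 windows (35.9% of all promoters hold one), a CCAAT box in 3 (37.4%) and a SOX core in 1 (18.7%). The TATA box (TATAAA), AP-1 site (TGACTCA), E-box of the form CAGCTG, cAMP response element and full NFI site stood in 0 of 8, against 13.6%, 5.19%, 16.4%, 1.80% and 0.0369% of all promoters. A match is a description of letters in the window and does not show a bound factor.

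The GABA-B pair was among the more abundant receptors, with Gabbr1 above 97.0% and Gabbr2 above 94.1% of the tested genes by mean FPKM. Gabbr1 had a lowest, median and highest level of 24.0, 71.2 and 112 FPKM in the naive libraries, 24.5, 30.5 and 74.6 in novice and 41.4, 64.1 and 113 in expert libraries. The low values of every group were those of its higher background libraries, and the groups overlapped. Gabbr2 ranged from 11.8 to 48.1 FPKM in the naive libraries (median 32.9), 13.9 to 48.9 in novice (17.9) and 19.3 to 62.1 in expert libraries (32.2), again with overlap between all groups. Gabbr1 made up 59.7% to 71.3% of the summed FPKM of the pair and exceeded Gabbr2 in 18 of 18 libraries.

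Grm3 was the leading metabotropic glutamate receptor and Grm5 was scarce. Grm3 had the highest FPKM of the 8 genes of its family in 18 of 18 libraries, with 48.4% to 95.1% of their sum, and stood above 97.0% of the tested genes by mean level. Its lowest, median and highest levels were 26.3, 69.2 and 121 FPKM in the naive libraries, 24.5, 28.6 and 65.6 in novice and 37.4, 67.3 and 129 in expert libraries. The highest novice library lay below the naive and expert medians, although the group ranges overlapped. Grm5 had 2.27, 4.03 and 4.62 FPKM in the naive libraries, 2.15, 3.20 and 7.06 in novice and 2.45, 2.93 and 6.97 in expert libraries. Its group ranges overlapped nearly in full. In the 8 higher background libraries Grm5 exceeded a median of only 52.0% of the silent genes (38.1% to 79.1%), against 96.1% (74.2% to 99.4%) in the 10 lower ones, so in the former its level could not be told from background. For Grm3 this share was at least 99.2% in every library, and for Gabbr1 at least 99.1%.

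**Figure D1:**
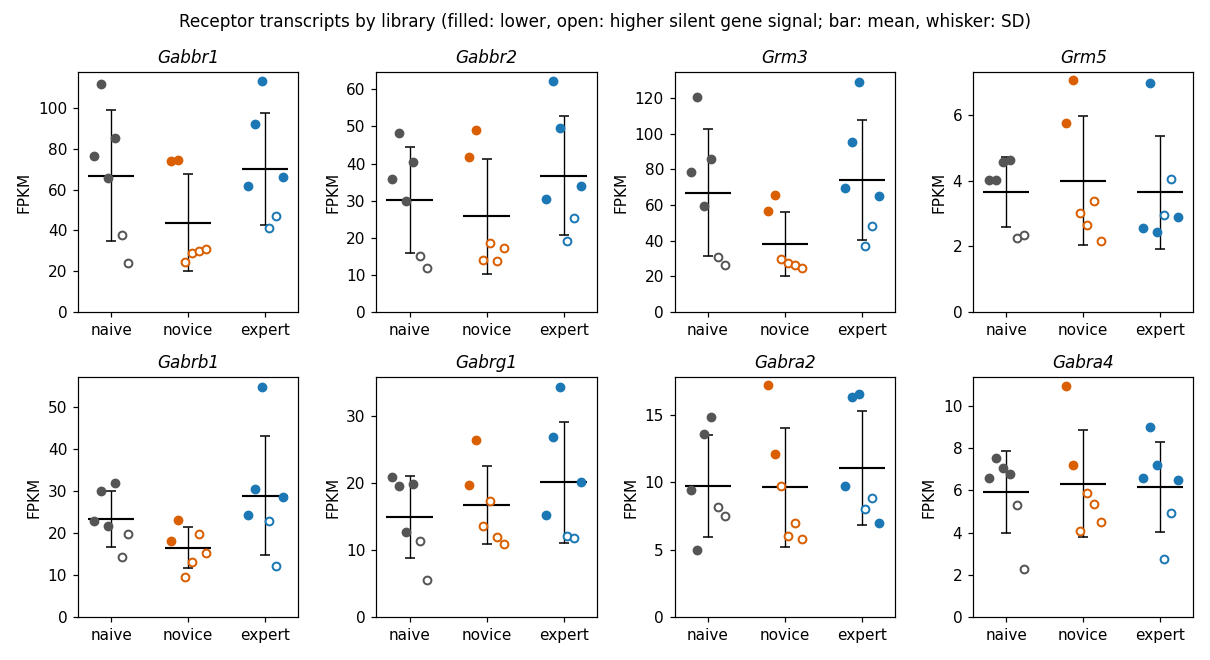
Level of each receptor transcript in every library, in FPKM (y axis, from 0), by group (x axis). Points are libraries, filled for lower and open for higher background, bars are means of 6 and whiskers SDs; the open points lie low for Gabbr1, Gabbr2 and Grm3, and the groups overlap for all 8 genes.

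Among the GABA-A members the beta subunit gene Gabrb1 and the gamma subunit gene Gabrg1 were the most abundant. Gabrb1 had 14.2, 22.3 and 32.0 FPKM (lowest, median, highest) in the naive libraries, 9.60, 16.8 and 23.2 in novice and 12.2, 26.6 and 54.9 in expert libraries. The expert maximum was that of expert 3, and the groups overlapped. Gabrg1 had 5.54, 16.2 and 20.9 FPKM in the naive libraries, 11.0, 15.5 and 26.5 in novice and 11.8, 17.8 and 34.4 in expert libraries, also with overlap. Gabrb1 was the highest of the 3 beta genes in 17 of 18 libraries (40.1% to 88.6% of their sum), and Gabrg1 the highest of the 3 gamma genes in 18 of 18 (48.7% to 90.0%).

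The alpha subunit genes Gabra2 and Gabra4 were lower and less separate from the other alpha genes. Gabra2 ranged from 4.98 to 14.8 FPKM in the naive libraries (median 8.82), 5.84 to 17.2 in novice (8.33) and 7.001 to 16.5 in expert libraries (9.31). Gabra4 ranged from 2.28 to 7.52 FPKM in the naive libraries (6.67), 4.06 to 10.9 in novice (5.63) and 2.76 to 8.98 in expert libraries (6.52). The groups overlapped for both genes. Gabra2 was the highest of the 6 alpha genes in 11 of 18 libraries, with 14.8% to 49.8% of their sum, and Gabra4 in 0 of 18, with 9.60% to 22.7%. Gabra3, another alpha subunit gene, had 9.32 ± 4.25 FPKM (SD, n = 6) in the naive libraries, 10.7 ± 4.65 in novice and 7.60 ± 2.65 in expert libraries.

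By mean FPKM over all libraries, a scale set per kilobase and so comparable between genes, the order was Gabbr1 (60.3), Grm3 (59.9), Gabbr2 (30.9), Gabrb1 (23.0), Gabrg1 (17.3), Gabra2 (10.2), Gabra4 (6.13) and Grm5 (3.77). Gabbr1 exceeded Grm3 in 9 of 18 libraries, so this first pair had no order. Grm3 exceeded Gabbr2 in 18 of 18 libraries, Gabbr2 exceeded Gabrb1 in 14, Gabrb1 exceeded Gabrg1 in 14, Gabrg1 exceeded Gabra2 in 16, Gabra2 exceeded Gabra4 in 17 and Gabra4 exceeded Grm5 in 16. Between groups, the mean was in the order novice, naive, expert for Gabbr1, Gabbr2, Gabra2, Gabrb1 and Grm3. The gap between neighbouring group means exceeded the larger of their SDs only for Gabrb1 between novice (16.6 ± 4.84 FPKM) and naive (23.4 ± 6.62), and the ranges of neighbouring groups overlapped for all 8 genes.

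**Figure D2:**
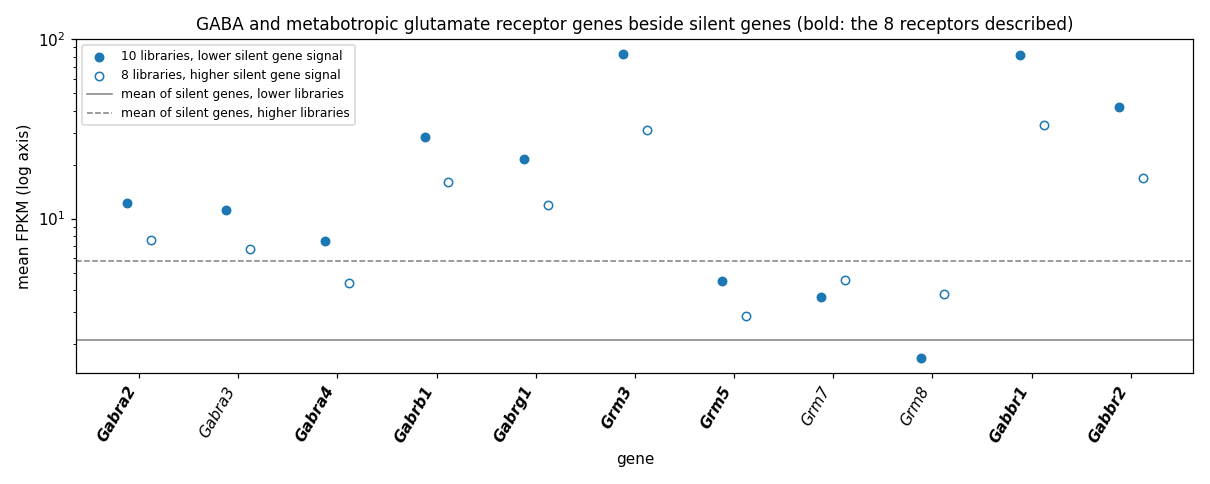
Mean FPKM (y axis, log scale) of the 8 receptor genes described here (x axis, in bold) and of Gabra3, Grm7 and Grm8, over the 10 lower (filled) and 8 higher (open) background libraries, with lines at the silent gene means of both. Grm3 and both GABA-B genes stand well above the lines in both, while the open points of Gabra4, Grm5, Grm7 and Grm8 lie below the line of the higher background libraries.

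Levels of several receptors differed with the background of the libraries. Gabbr1 ran from 61.7 to 113 FPKM in the lower background libraries and from 24.0 to 47.1 in the higher ones, Grm3 from 56.8 to 129 and 24.5 to 48.3, Gabbr2 from 29.9 to 62.1 and 11.8 to 25.3, and Gabra4 from 6.47 to 10.9 and 2.28 to 5.88. For these 4 of the 8 genes the libraries of the 2 kinds did not overlap. The mean log2 level of the astrocyte markers did not overlap either. It ran from 6.70 to 8.08 in the lower background libraries and from 5.86 to 6.41 in the higher ones. Background and astrocyte marker content thus went together across the 2 kinds, and the part of each in these receptor gaps was not tested. Of all tested genes 5.89% were lower without overlap in the higher background libraries, and 6.73% were higher without overlap. Gabra2, Gabrb1, Gabrg1 and Grm5 overlapped between the kinds. As the novice group held 4 of the 8 higher background libraries, fits with the silent gene mean as a further term are given beside each group comparison. Such fits do not separate background from astrocyte marker content.

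None of the 8 genes passed the test for a difference between naive, novice and expert libraries. By limma on log2(FPKM + 1), with Benjamini-Hochberg adjustment over 21745 genes, 0 genes were called in any comparison (0% of those tested). At an unadjusted p under 0.05 stood 1000 genes (4.60%) between novice and naive, 622 (2.86%) between expert and naive, and 2360 (10.9%) between expert and novice libraries. Groups did not overlap for 0.129%, 0.0782% and 0.432% of tested genes in these comparisons, and for 0 of the 8 receptors. The other settings tried gave 0 calls as well. Fold changes below are log2 differences on the log2(FPKM + 1) scale, which understates those of low genes, and in bulk RNA fewer cells of a type and less RNA per cell cannot be told apart.

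Between expert and novice libraries, Grm3 differed most, at 0.93 ± 0.39 (SE, n = 6 and 6), with an unadjusted limma p of 0.027 and an adjusted p of 0.45. Gabrb1 differed by 0.69 ± 0.29, with an unadjusted limma p of 0.030 and an adjusted p of 0.45. These were 2 of 8 genes at an unadjusted p under 0.05 with a higher expert mean, against 4.88% of all tested genes. The same held for 11 of the 20 astrocyte markers. Gabbr1 differed by 0.73 ± 0.38 and Gabbr2 by 0.57 ± 0.39, with adjusted limma p of 0.45 and 0.48. Gabra2 (0.21 ± 0.30), Gabrg1 (0.21 ± 0.32), Gabra4 (-0.034 ± 0.28) and Grm5 (-0.088 ± 0.27) differed by less than their standard errors. The mean was higher in expert libraries for 6 of 8 genes (40.4% of all genes), with a median of 0.39 against -0.14 for all genes and 0.24 for the 2183 genes of at least 20 FPKM. With libraries scaled by their median ratio over 4112 genes, which moved the median of all genes to -0.34 here (0.21 between novice and naive, -0.12 between expert and naive), the mean was higher for 4 of 8 genes, with a median of 0.12. With quantile normalization it was higher for 8 of 8, with a median of 0.34. Over alternative settings the Grm3 difference ran from 0.061 to 1.10 and its adjusted p from 0.11 to 0.99997. The lowest value came with the mean of the astrocyte markers as a further term, and with the silent gene mean as one it was 0.33 ± 0.22. The corresponding Gabrb1 values were 0.17 ± 0.21 and 0.27 ± 0.19. With the silent gene term Gabbr1 differed by 0.17 ± 0.24, Gabbr2 by 0.017 ± 0.27, Gabra4 by -0.35 ± 0.23 and Gabrg1 by -0.27 ± 0.20. Without novice 1 and novice 3, Grm3 differed by 1.03 ± 0.44 and Gabrb1 by 0.56 ± 0.33, both with an adjusted limma p of 0.54.

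For novice against naive, Grm3 differed by -0.71 ± 0.39 and Gabbr1 by -0.58 ± 0.38, both with an adjusted limma p of 0.89. Gabrb1 differed by -0.48 ± 0.29, Gabbr2 by -0.25 ± 0.39 and Gabra2 by -0.034 ± 0.30. Gabrg1 (0.20 ± 0.32), Gabra4 (0.087 ± 0.28) and Grm5 (0.058 ± 0.27) had the opposite sign. Thus 5 of 8 genes were lower in novice libraries, against 43.0% of all genes, and 0 of 8 had an unadjusted p under 0.05. Their median was -0.14, against 0.071 for all genes and -0.20 for those of at least 20 FPKM, and it was 0.041 with median ratio scaling (4 of 8 lower), against 0.21 for all genes, and -0.12 with quantile normalization (6 of 8 lower). With the silent gene mean as a further term, Grm3 differed by -0.44 ± 0.21, Gabbr1 by -0.33 ± 0.22, Gabrb1 by -0.29 ± 0.18 and Gabbr2 by 0.0046 ± 0.26, while Gabrg1 differed by 0.42 ± 0.19, Gabra4 by 0.23 ± 0.22 and Grm5 by 0.13 ± 0.26. Gabrg1 then had an unadjusted limma p of 0.043 and an adjusted p of 0.90, and the other 7 genes had adjusted p of 0.90 to 0.999. For expert against naive the 8 values lay between -0.030 ± 0.27 (Grm5) and 0.41 ± 0.32 (Gabrg1), each with an adjusted limma p of 0.9996. The mean was higher in expert libraries for 7 of 8 genes (43.9% of all genes), with a median of 0.19, and 0 of 8 had an unadjusted p under 0.05. With the silent gene term 5 of 8 were lower in expert libraries: Gabbr1 (-0.16 ± 0.23), Gabra4 (-0.12 ± 0.22), Grm3 (-0.11 ± 0.21), Grm5 (-0.11 ± 0.26) and Gabrb1 (-0.020 ± 0.18). Gabrg1 differed by 0.15 ± 0.19 in that fit. These comparisons share libraries, so their values are not independent.

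**Figure D3:**
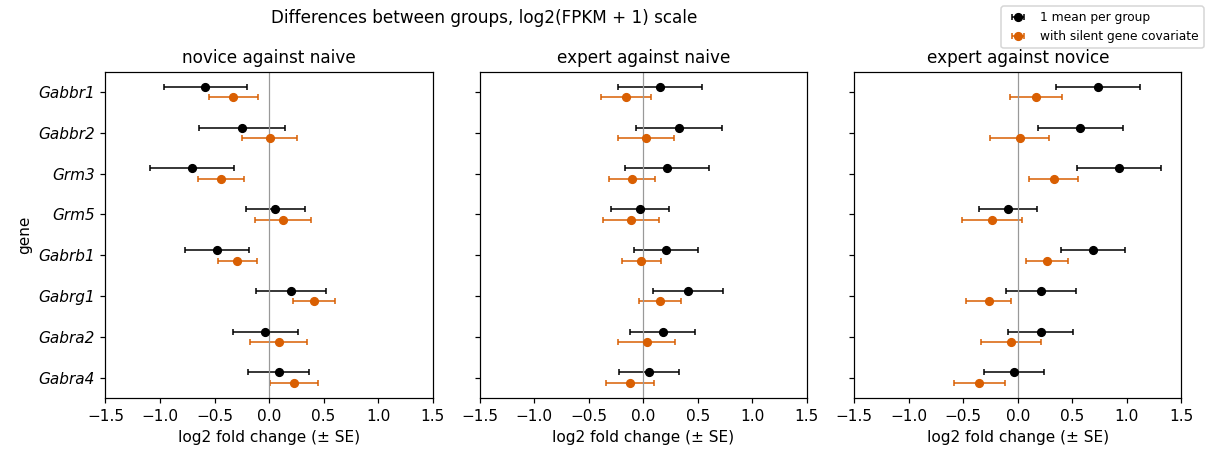
Log2 fold change with its SE (x axis) of each gene (y axis) in the 3 comparisons, fitted with 1 mean per group (black) and with the silent gene mean as a further term (orange). With the further term the values of Grm3, Gabbr1, Gabbr2 and Gabrb1 lie nearer to 0 in the left and right panels, while those of Gabrg1, Gabra4 and Grm5 move away from 0 in the left panel.

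The astrocyte markers had a lower mean in novice libraries, as 5 of the 8 receptors did, and no marker passed the test. Of the 20 astrocyte markers, 20 had a lower mean in novice than in naive libraries (median -0.60) and 20 a higher mean in expert than in novice libraries (median 0.79), with 0 called, the lowest adjusted limma p being 0.89 and 0.45, and these counts were the same with both scalings. The mean log2(FPKM + 1) of these markers was 6.82 ± 0.70 (SD, n = 6) in the naive libraries, 6.25 ± 0.45 in novice and 7.02 ± 0.65 in expert libraries, and that of the 14 neuron markers was 4.41 ± 0.79, 4.29 ± 0.85 and 4.21 ± 0.61. The silent gene mean was 3.68 ± 2.36, 4.64 ± 1.63 and 2.94 ± 2.10 FPKM. Ages differed as well, at 15.0 ± 3.10, 12.5 ± 0.84 and 14.2 ± 0.98 weeks. The part of cell type, background and age in the receptor differences was not tested beyond the fits with such terms. Against the astrocyte marker mean of the same library, Grm3 stood at -0.92 ± 0.18 (log2, SD, n = 6) in the naive libraries, -1.06 ± 0.21 in novice and -0.91 ± 0.17 in expert libraries, and Gabbr1 at -0.90 ± 0.17, -0.92 ± 0.29 and -0.95 ± 0.18. Gabrg1 stood at -2.93 ± 0.29, -2.17 ± 0.20 and -2.72 ± 0.17. With the astrocyte marker mean as a further term, Gabrg1 differed by 0.70 ± 0.15 between novice and naive libraries, with an adjusted limma p of 0.56 (0.56 to 0.9999 over the settings tried).

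Ratios between members within a library do not move with the library's scaling, and 4 pairs were compared in 3 comparisons by an exact two-sided permutation test over 924 splits, adjusted over the 12. The log2 ratio of Gabbr1 to Gabbr2 was 1.14 ± 0.10 (SD, n = 6) in the naive libraries, 0.81 ± 0.18 in novice and 0.96 ± 0.22 in expert libraries. It was lower in novice than in naive libraries by a difference of -0.34 (exact permutation p = 0.0087, adjusted p = 0.035), with 0 of 6 novice libraries above the naive median. The naive libraries ran from 1.03 to 1.31 and the novice ones from 0.61 to 1.12, so the groups overlapped. Expert against naive (-0.19, exact permutation p = 0.067, adjusted p = 0.14) and expert against novice (0.15, exact permutation p = 0.21, adjusted p = 0.36) did not pass. The mean ratio was 0.97 in both kinds of library. The higher background kind held 4 of the 6 novice libraries, so these means mix kind and group. The relation of the ratio to background was not tested. Among lower background libraries the ratio was lowest in novice 1, novice 2 and expert 2 (0.83, 0.61 and 0.57). These had the highest neuron marker means (5.39, 5.33 and 5.23, log2(FPKM + 1)). Among higher background libraries novice 4 had the lowest ratio (0.65) and the highest neuron marker mean (4.10), but novice 3 had 0.81 at 3.44. The part of cell make-up in this ratio was not tested.

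The ratio of Grm3 to Grm5 could be read best in the lower background libraries. In the 8 higher ones Grm5 could not be told from background, so the ratio there is a lower bound. The 2 kinds were not fully apart in this. Grm5 exceeded 74.2% of the silent genes in expert 1, of lower background, and 79.1% in expert 5, of higher background. The expert 1 value (4.76) may thus be a bound as well. This share was 89.3% in naive 1, 91.9% in expert 6, 94.3% in naive 2 and 94.8% in naive 3, so their ratios are uncertain too. It ran from 97.4% to 99.4% in the remaining lower background libraries. In the lower background libraries the log2 ratio ran from 3.71 to 4.91 in 4 naive and from 3.77 to 5.72 in 4 expert libraries. It ran from 3.22 to 3.30 in 2 novice libraries, so both novice libraries lay below the others. The difference was -1.02 for novice against naive and 1.43 for expert against novice (exact permutation, adjusted p = 0.20 and 0.29). Novice 1 and novice 2 also had the highest neuron marker means (5.39 and 5.33, log2(FPKM + 1)). Expert 2, the lowest of these expert libraries at 3.77, followed at 5.23. Across the lower background libraries Grm5 had r = 0.93 with the neuron marker mean. The part of cell make-up in this ratio was not tested. The bounds in the higher background libraries ran from 2.96 to 3.77. Over all 18 libraries with the bounds taken as values, the novice mean less the naive mean was -0.79, the expert less the naive 0.27 and the expert less the novice 1.05 (exact permutation, adjusted p = 0.026, 0.61 and 0.026). By the kind of library 4 of 6 novice values are bounds, against 2 of 6 in each other group. These p-values are therefore not read as a difference between groups.

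Within each kind of library the Gabbr1 to Gabbr2 difference between novice and naive libraries was -0.41 (lower background) and -0.32 (higher background; exact permutation, adjusted p = 0.20 and 0.53). Here 2 libraries stood against 4, which allows no exact permutation p below 0.067, so neither value could have passed. The call was lost, with a difference of -0.34 to -0.30 and an adjusted exact permutation p of 0.052, when novice 1, novice 2, novice 3 or novice 4 was left out. Without both novice 1 and novice 3 the difference was -0.34 (exact permutation, adjusted p = 0.13).

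The subunits of the GABA-A receptor gave no called ratio. The log2 ratio of Gabrb1 to Gabrg1 was 0.73 ± 0.59 (SD, n = 6) in the naive libraries, -0.000046 ± 0.49 in novice and 0.50 ± 0.33 in expert libraries. The novice libraries thus held equal FPKM of both on average, and the groups overlapped. The difference was -0.73 for novice against naive (exact permutation p = 0.037, adjusted p = 0.11) and 0.50 for expert against novice (exact permutation p = 0.069, adjusted p = 0.14). Naive 6 had a ratio of 1.83, against 0.13 to 0.77 in the other naive libraries. In naive 6 Gabrg1 exceeded only 71.8% of the silent genes. Without this library the difference for novice against naive was -0.51. Gabra2 to Gabra4 was 0.72 ± 0.77, 0.57 ± 0.42 and 0.85 ± 0.49, with adjusted exact permutation p of 0.46 to 0.74. This alpha pair spread widely within each group, from -0.60 to 1.71 in naive libraries alone. In the 8 higher background libraries Gabra4 exceeded a median of only 77.0% of the silent genes (52.1% to 86.1%). For Gabra2 this share was 88.8% (82.3% to 96.7%), so the ratio of the alpha pair is limited by background in those libraries.

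**Figure D4:**
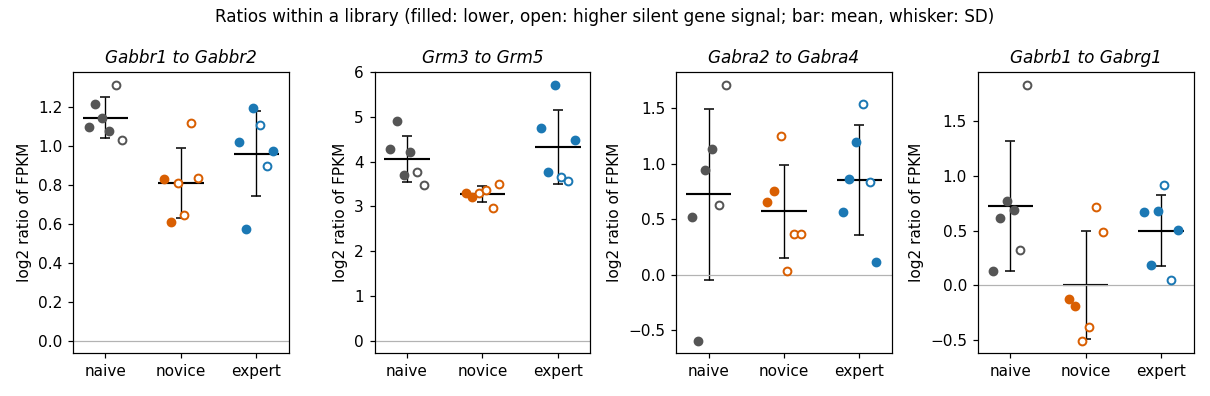
Log2 ratio of FPKM within each library (y axis) for the 4 pairs, by group (x axis). Points are libraries, filled for lower and open for higher background, bars are means of 6 and whiskers SDs; for Grm3 to Grm5 the open points are lower bounds and both filled novice points lie below the other filled points, and for Gabbr1 to Gabbr2 all 6 novice libraries lie below the naive median.

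In the lower background libraries Gabrb1, Grm3 and Gabbr1 followed the astrocyte markers and Grm5 followed the neuron markers. Relations over libraries were computed within each kind of background, 32 in all with adjustment over them. In the 10 lower background libraries, Pearson's r with the astrocyte marker mean was 0.96 for Gabrb1 (rho 0.88, permutation p of 6.0e-05 and 0.0017, adjusted p of 0.00075 and 0.014), 0.93 for Grm3 (rho 0.94, permutation p of 2.0e-05 and 0.00018, adjusted p of 0.00064 and 0.0040) and 0.85 for Gabbr1 (rho 0.88, permutation p of 0.0011 and 0.0014, adjusted p of 0.0072 and 0.014). With expert 3 and novice 1 left out, the libraries farthest from the median marker mean, the values of r were 0.85, 0.91 and 0.88. Grm5 had r = 0.93 with the neuron marker mean (rho 0.94, permutation p of 7.0e-05 and 0.00025, adjusted p of 0.00075 and 0.0040), and 0.94 without expert 3 and expert 6. Its r with the astrocyte markers was -0.41 (rho -0.32, permutation p of 0.23 and 0.36, adjusted p of 0.47 and 0.61). These points share library depth and cell make-up. The share of all tested genes with a like r was not computed, here or for the higher background libraries. The relations are thus not shown to be particular to these receptors.

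In the 8 higher background libraries, r with the astrocyte marker mean was 0.93 for Gabbr2 (rho 0.93, exact permutation p of 0.00050 and 0.0022, adjusted p of 0.0040 and 0.014) and 0.92 for Gabbr1 (rho 0.88, exact permutation p of 0.0014 and 0.0072, adjusted p of 0.0074 and 0.039). Without expert 4 and expert 5 these were 0.82 and 0.75. Grm3 had r = 0.87 there (rho 0.81, exact permutation p of 0.0055 and 0.022, adjusted p of 0.025 and 0.10), which fell to 0.24 without expert 4 and expert 5, so the relation rests on those libraries. Gabrb1 had r = -0.034 (exact permutation p = 0.93, adjusted p = 0.93), unlike in the lower background libraries, and this difference was not tested. Grm5 had r = 0.50 with neuron markers (exact permutation p = 0.20, adjusted p = 0.44). Gabbr2, in turn, had only r = 0.48 with the astrocyte markers in the lower background libraries (permutation p = 0.16, adjusted p = 0.37). Its difference between the 2 kinds of library was not tested.

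**Figure D5:**
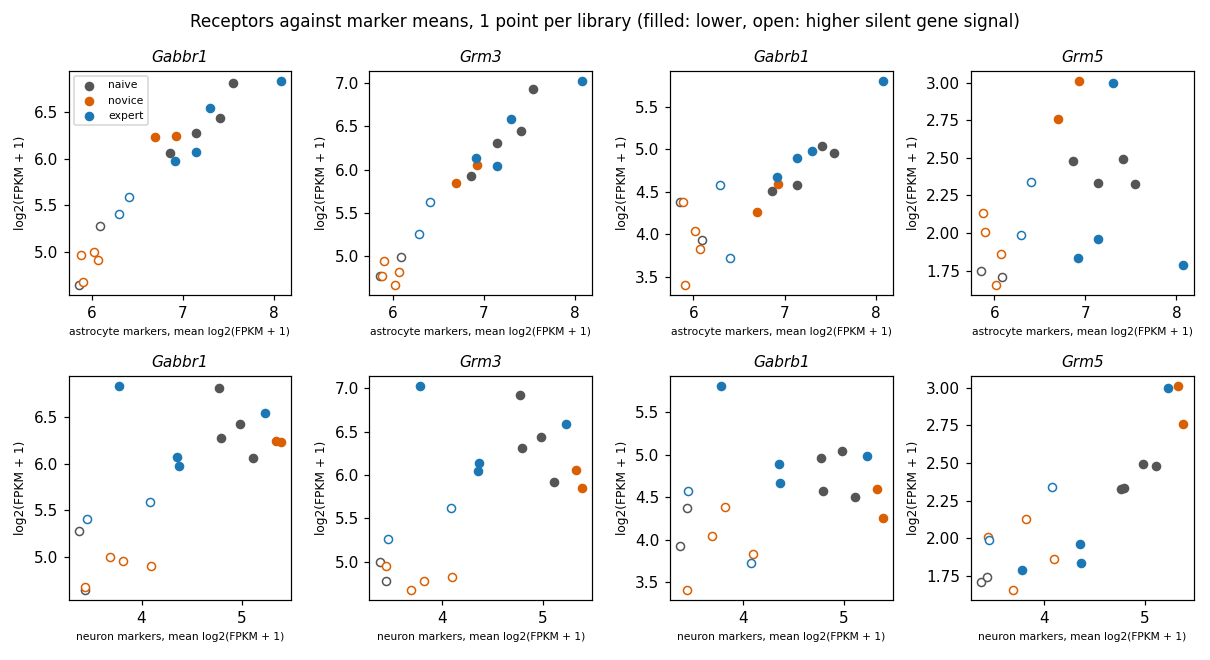
Log2(FPKM + 1) of 4 receptors (y axis) against the mean log2(FPKM + 1) of astrocyte markers (upper row) and neuron markers (lower row), 1 point per library, coloured by group and filled for lower background. Among filled points Gabbr1, Grm3 and Gabrb1 rise with the astrocyte markers and Grm5 with the neuron markers.

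The genes whose pattern was most like that of each receptor were taken over all 18 libraries after subtracting each group's mean, among 9753 other genes of at least 5 FPKM (9754 for Grm5), and are given as a description. They follow the background too, as the receptors do. For Grm3 these were Tspan7 (r = 0.99), Glud1 (0.99), the glutamate dehydrogenase gene, and Ndrg2 (0.99), a gene used as an astrocyte marker. For Gabbr1 they were Ank2 (0.98), Mgll (0.98), the monoacylglycerol lipase gene, and Gpm6b (0.98), and for Gabbr2 they were Nckap1 (0.99), Tmod2 (0.98) and Myo18a (0.98). For Gabrb1 they included Tnik (0.92) and Os9 (0.92), and for Gabrg1 they were Ddhd1 (0.96), Selt (0.96) and the metallothionein gene Mt1 (0.95). For Gabra2 they were Chordc1 (0.84), Speg (0.83) and Atg7 (0.82), and for Gabra4 Dlg1 (0.94), Zcchc18 (0.94) and Atpif1 (0.93). Grm5 was closest to Ak5 (0.96), Lingo1 (0.94) and Tanc2 (0.94). Within the higher background libraries alone these 3 values were 0.76, 0.38 and 0.090, and those of the 3 genes most like Grm3 were 0.76, 0.73 and 0.76. Other values held there, such as 0.98 for Gabbr1 and Ank2. Among the 8 genes, Gabbr1 and Gabbr2 had r = 0.97, with 0.86 in the lower and 0.69 in the higher background libraries. Gabbr1 and Grm3 also had 0.97, with 0.97 and 0.29.

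The remaining members of the receptor families did not pass the test either. Of the 6 other metabotropic glutamate receptor genes, 6 had a higher mean in novice than in naive libraries (median 0.24; 57.0% of all genes were higher) and 6 a lower mean in expert than in novice libraries (median -0.46; 59.6% of all genes were lower; 4 and 4 with quantile normalization), with 0 called and 2 at an unadjusted limma p under 0.05 in the latter (5.97% of all genes). Among the more abundant were Grm7 at 3.99 ± 1.43 FPKM (SD, n = 6) in the naive libraries, 4.77 ± 1.52 in novice and 3.40 ± 1.33 in expert libraries, and Grm8 at 2.46 ± 1.28, 3.66 ± 1.32 and 1.74 ± 1.04. Both lay near the silent gene mean of the higher background libraries or below it. Of the 15 other GABA-A subunit genes, 12 had a higher mean in novice than in naive libraries (median 0.23) and 13 a lower mean in expert than in novice libraries (median -0.45), with 0 called. These became 14 (median 0.40) and 14 (median -0.66) with median ratio scaling, and 11 (median 0.073) and 11 (median -0.18) with quantile normalization. Of these, the values of Gabra3 are given above.

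Genes that act with the receptors were likewise uncalled in all 3 comparisons, and the sign of several list medians depended on the scaling of the libraries. Of 20 GABA-B auxiliary subunits and Gi effectors, 13 had a lower mean in novice than in naive libraries (median -0.12) and 12 a higher mean in expert than in novice libraries (median 0.15), which became 9 (median 0.055) and 7 (median -0.11) with median ratio scaling and 16 (median -0.13) and 16 (median 0.15) with quantile normalization. The most abundant was Gnao1, the Go alpha subunit gene, at 163 ± 78.3 FPKM (SD, n = 6) in the naive libraries, 105 ± 48.3 in novice and 186 ± 84.4 in expert libraries, followed by Gnai2 (105 ± 38.2, 73.1 ± 17.3 and 123 ± 46.4) and Gnb1 (104 ± 55.1, 86.4 ± 60.2 and 102 ± 47.0). Of 20 mGluR5 effectors and Homer scaffold genes, 17 were lower in novice than in naive libraries (median -0.14) and 14 higher in expert than in novice libraries (median 0.18), which became 9 (median 0.056) and 9 (median -0.087) with median ratio scaling and 12 (median -0.060) and 14 (median 0.13) with quantile normalization. The most abundant were Shank1, a scaffold gene of neuronal synapses (70.5 ± 45.3, 60.2 ± 59.3 and 61.4 ± 49.7 FPKM), Prkcb (43.6 ± 24.2, 42.2 ± 36.2 and 40.6 ± 27.4) and Itpr1 (43.0 ± 24.4, 40.7 ± 37.3 and 38.2 ± 25.9).

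Of 15 GABA-A assembly, trafficking and gephyrin scaffold genes, 11 were lower in novice than in naive libraries (median -0.21) and 10 higher in expert than in novice libraries (median 0.20), which became 9 (median -0.045) and 5 (median -0.089) with median ratio scaling and 11 (median -0.21) and 12 (median 0.17) with quantile normalization. Gabarapl2 led with 51.6 ± 10.4 FPKM (SD, n = 6) in the naive libraries, 41.4 ± 8.998 in novice and 42.0 ± 9.12 in expert libraries, before Gabarap (35.2 ± 15.5, 30.2 ± 12.3 and 35.8 ± 13.3) and Gabarapl1 (32.8 ± 14.9, 28.7 ± 15.1 and 31.3 ± 9.50). Of 10 chloride carrier and channel genes, 7 were lower in novice than in naive libraries (median -0.15) and 8 higher in expert than in novice libraries (median 0.14), which became 4 (median 0.024) and 4 (median -0.12) with median ratio scaling and 7 (median -0.19) and 9 (median 0.23) with quantile normalization. The most abundant were Ttyh1 (200.4 ± 89.6, 145 ± 63.0 and 227 ± 111 FPKM), Clcn3 (19.4 ± 7.01, 14.7 ± 6.14 and 20.5 ± 9.73) and the neuronal chloride exporter gene Slc12a5 (10.9 ± 4.61, 12.9 ± 6.79 and 9.60 ± 4.85). Of 15 ionotropic glutamate receptor genes, 10 were higher in novice than in naive libraries (median 0.088) and 12 lower in expert than in novice libraries (median -0.17), which became 12 (median 0.25) and 12 (median -0.42) with median ratio scaling and 7 (median -0.0028) and 8 (median -0.0022) with quantile normalization. The AMPA receptor gene Gria2 led (38.1 ± 10.1, 31.0 ± 9.13 and 42.1 ± 14.1 FPKM), followed by the NMDA receptor gene Grin2c (27.3 ± 10.7, 17.3 ± 4.93 and 33.1 ± 16.6) and the kainate receptor gene Grik5 (16.9 ± 7.38, 13.5 ± 9.95 and 17.5 ± 8.16).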

How the data were processed

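RNA of M1 astrocytes was measured in 18 libraries, made with a stranded total RNA kit per the labels' protocols. The deposited values are FPKM, made by the authors with TopHat and Cufflinks on mouse build mm9, per the submitters' processing notes. The sources used here give no versions, options or further scaling. Of 23951 entries, 27 with names turned into dates were left out. Read totals were not used. Depth was read from the FPKM step of 1 fragment per kb over 126 single-transcript olfactory genes. At the step taken, 57.5% to 79.7% of low values lay within 0.1 of a whole multiple. Unrelated values would give 20% at a step fixed in advance. The step was picked among many candidates for a high share, so unrelated values would give more than 20% here. The rule for this step was settled after the values were seen and the step is approximate.

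Genes of at least 1 FPKM in at least 6 libraries were fitted on log2(FPKM + 1), pseudocount 1, with limma 3.58.1 in R 4.3.3 (trend, all libraries in 1 fit, 1 mean per group, two-sided, Benjamini-Hochberg over all tested genes, threshold 0.05), after a test on simulated data. Ratios and relations used permutation tests (exact up to 8 libraries in a relation, otherwise 100000 resamples) written with NumPy 2.4.6, with ranks from SciPy 1.17.1. Promoter sequences came from RefSeq (GRCm38.p6), which matched 7 of 8 genes. The 8 genes, the pathway and marker lists, the pairs and the named-gene rule (the 8 genes, the 3 most alike genes of at least 5 FPKM, the 3 most abundant genes of each pathway list) were chosen with earlier results of these data known. Some genes that this rule names are not reported here. The split at 4 FPKM of silent gene mean, the motifs, and the shares within receptor families were chosen after these values were seen. Alternatives changed the pseudocount, filter, scaling, terms, weights and libraries used.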

Additional observations from a re-analysis of the deposited data

Results flagged for a closer look

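Grm5 in expert 2 stood apart from its group. It had 6.97 FPKM there, and the nearest of the other 5 expert libraries had 4.06 FPKM. This was 1 of 36 groups of 6 libraries looked at, and chance sets apart about 1 in 20. Expert 2 also had the highest neuron marker mean of the expert libraries, at 5.23 on the log2(FPKM + 1) scale, against 3.46 to 4.37 in the others, and its part in the Grm5 level was not tested.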

How the results depend on the processing

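The count of genes called was 0 in all 3 comparisons and in the test of any difference under all 136 values computed by limma over 35 alternative settings, with 485 to 5394, 354 to 1442 and 429 to 6083 genes at an unadjusted p under 0.05. Of 821 fold change values of the 8 receptors, 733 kept their sign, 88 did not and 0 changed their call. Signs changed mostly for small differences, and the cause was not tested. With median ratio scaling, the values were Gabra2 0.14 for novice against naive and Gabra4 -0.029 for expert against naive and Gabra2 -0.058, Gabrg1 -0.070 for expert against novice. With quantile normalization, the values were Grm5 -0.11 for novice against naive and Grm5 0.080 for expert against naive and Gabra4 0.026, Grm5 0.19 for expert against novice. With the silent gene mean as a term, the values were Gabbr2 0.0046, Gabra2 0.087 for novice against naive and Gabbr1 -0.16, Gabra4 -0.12, Gabrb1 -0.020, Grm3 -0.11 for expert against naive and Gabra2 -0.059, Gabrg1 -0.27 for expert against novice. With the astrocyte marker mean as a term, the values were Gabbr1 0.032, Gabbr2 0.37, Gabra2 0.20 for novice against naive and Gabbr1 -0.070, Gabra4 -0.075, Grm3 -0.011 for expert against naive and Gabbr1 -0.10, Gabbr2 -0.27, Gabra2 -0.11, Gabrg1 -0.47 for expert against novice. In the libraries under 2 FPKM of silent gene mean, which held no novice library, the values were Gabbr1 -0.14, Grm3 -0.13 for expert against naive. In those of 2 FPKM or more, the values were Gabbr2 0.097 for novice against naive and Gabra2 -0.082, Gabra4 -0.11, Gabrb1 -0.023 for expert against naive and Gabra2 -0.014, Gabrg1 -0.28 for expert against novice. In those under 4 FPKM, the values were Gabbr2 0.24, Gabra2 0.50 for novice against naive and Gabbr1 -0.042 for expert against naive and Gabbr2 -0.097, Gabra2 -0.28 for expert against novice. In those of 4 FPKM or more, the values were Gabbr2 0.23 for novice against naive and Gabrb1 -0.0020, Grm5 0.44 for expert against naive and Gabrg1 -0.14, Grm5 0.25 for expert against novice. With the kind of background as a term, the values were Gabbr2 0.17, Gabra2 0.15 for novice against naive and Gabrg1 -0.089 for expert against novice. Without novice 1 and novice 3, the values were Grm5 -0.015 for novice against naive and Gabra4 0.038 for expert against novice. With array weights, the values were Gabra4 -0.15, Gabrg1 -0.080, Grm5 -0.21 for novice against naive and Gabbr1 -0.079, Gabra2 -0.041, Gabra4 -0.0090, Grm3 -0.0016 for expert against naive and Gabra4 0.14, Grm5 0.040 for expert against novice. Leaving out 1 library at a time changed the sign for 30 values: Gabbr1 for expert against naive from -0.10 to 0.33, Gabra2 for novice against naive from -0.21 to 0.093, Gabra4 for expert against naive from -0.15 to 0.23, Gabra4 for expert against novice from -0.14 to 0.14, Gabra4 for novice against naive from -0.12 to 0.18, Gabrg1 for novice against naive from -0.037 to 0.31, Grm3 for expert against naive from -0.0062 to 0.42, Grm5 for expert against naive from -0.20 to 0.043, Grm5 for expert against novice from -0.26 to 0.066, Grm5 for novice against naive from -0.096 to 0.17. The lowest and highest of the other fold changes stayed on 1 side of 0 in these fits.

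Of 280 ratio values, 247 kept their sign and call. The call of Gabbr1 to Gabbr2 for novice against naive was lost in libraries of 2 FPKM or more (-0.34), under 4 FPKM (-0.41) and of 4 FPKM or more (-0.32) and without novice 1 and novice 3 (-0.34), and ran from -0.40 to -0.30 when 1 library was left out. The Grm3 to Grm5 values, which hold bounds, did not pass in the same sets, at -0.53, -1.02, -0.34 and -0.80 for novice against naive and 0.72, 1.43, 0.33 and 1.06 for expert against novice, and ran from -0.90 to -0.62 and from 0.78 to 1.20 when 1 library was left out. These sets hold fewer libraries, so their smallest p is larger (0.067 in both sets split at 4 FPKM). The set without novice 1 and novice 3 was added after seeing the data. Values with a changed sign were Gabra2 to Gabra4 under 4 FPKM (0.20 for novice against naive, -0.018 for expert against novice) and Grm3 to Grm5 at 4 FPKM or more (-0.0097 for expert against naive). When 1 library was left out, the ranges that crossed 0 were Gabra2 to Gabra4 for expert against naive from -0.13 to 0.33, Gabra2 to Gabra4 for novice against naive from -0.42 to 0.046, Grm3 to Grm5 for expert against naive from -0.010 to 0.44.

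With the replicate number as a block, 0 genes were called, with 1221, 761 and 2963 at an unadjusted p under 0.05. Grm3 then had an unadjusted limma p of 0.031 (adjusted p of 0.80) for novice against naive and 0.0074 (adjusted p of 0.37) for expert against novice. Deviations of libraries with the same number had r of -0.36 to 0.46, over 0.1 in 10 of 18 pairs, and a library correlated best with its own number in 5 of 36 cases, so the samples were not taken as paired. Depth limits Grm5 and the alpha subunit genes most. In libraries with a readable step, Grm5 corresponded to 1.22 to 11.5 fragments per kb and Gabra4 to 1.18 to 15.0, against 13.6 to 158 for Grm3.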

Other observations

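Markers of vessel cells had higher means in expert libraries, though none passed the adjusted threshold. Of 10 endothelial markers, 10 had a higher mean in expert than in naive libraries (median 0.61; 43.9% of all genes were higher), 7 of them at an unadjusted limma p under 0.05 (2.86% of all genes), with adjusted p of 0.9996. The markers Flt1, a VEGF receptor gene, and Itm2a stood at 53.0 ± 9.87 and 60.6 ± 12.6 FPKM (SD, n = 6) in naive and 87.1 ± 33.3 and 95.8 ± 45.0 FPKM in expert libraries. Of 8 pericyte and smooth muscle markers, 8 had a higher mean in expert than in naive libraries (median 0.42), and Rgs5 stood at 71.2 ± 16.5 and 116 ± 48.5 FPKM. Of 7 oligodendrocyte precursor markers, 6 were higher (median 0.40), of 8 oligodendrocyte markers 0 (median -0.30), and of 10 microglia and macrophage markers 3 (median -0.10). The mean of the endothelial markers was 5.90 in expert 3 and 6.09 in expert 6 (log2(FPKM + 1)). It was 4.65 to 5.28 in the other expert and 4.59 to 5.08 in the naive libraries. That of the pericyte and smooth muscle markers was 4.47 and 4.70, against 3.74 to 4.06 and 3.57 to 3.88. Markers of 1 list share these libraries, so their counts are not independent.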
